A study of Homo sapiens with 6 samples.

Results

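The 10 transcripts described here are noncoding RNAs of genes that carry small nucleolar RNAs (snoRNAs), mostly in introns: GAS5, SNHG1, SNHG5, SNHG6, SNHG7, SNHG8, SNHG12, SNHG15, SNHG16 and ZFAS1. Members were picked by gene name from a list of known hosts, with earlier results of these data known, and all 10 were found among the 57396 genes of the count table. All 10 were among the 15312 genes that passed the filter on low counts. The RNA came from PC-3, a widely used human prostate cancer cell line of metastatic origin. Cells received 160 µM S-adenosylmethionine (SAM), the methyl donor of the cell, for 5 d, or vehicle (control). Each group held 3 libraries, and the labels name no other agent. The labels do not say whether the libraries came from separate cultures, so the p-values measure the spread between libraries, which may be technical.

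A snoRNA host gene is transcribed and spliced, and the snoRNAs are trimmed out of the excised introns. Box C/D snoRNAs guide ribose methylation of ribosomal RNA by fibrillarin, which takes the methyl group from SAM, and box H/ACA snoRNAs guide pseudouridylation by dyskerin. The spliced exons that remain are the host transcript. Counts here are per gene, and hosts have many annotated transcripts. In GENCODE the exons of all transcripts together reach 4932 bases for GAS5, whose span is 4983, and 4266 bases for SNHG12, whose span is 4446. The counts can thus hold reads of RNA that kept an intron. Many host genes start with a run of pyrimidines, the TOP motif first known from ribosomal protein genes, and many spliced hosts are degraded by nonsense-mediated decay when ribosomes read their short open frames. Levels of such hosts are therefore known to depend both on transcription and on translation-coupled decay. Counts per gene do not separate these, and in bulk RNA fewer cells with a transcript and less transcript per cell cannot be told apart.

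Because the hosts carry different guides, the cargo was taken from the RefSeq annotation, by position within the host and without regard to strand. GAS5 held 11 annotated snoRNA genes, among them SNORA103, named as an H/ACA RNA, beside C/D RNAs. SNHG1 held 9. SNHG12 held 4, a mixture of one C/D RNA (SNORD99) and the H/ACA RNAs SNORA61, SNORA44 and SNORA16A. ZFAS1 held 3 (SNORD12C, SNORD12B and SNORD12), SNHG16 held 3, SNHG5 and SNHG7 held 2 each, and SNHG6, SNHG8 and SNHG15 held 1 each. The cargo of ZFAS1, the host that was lower after SAM, is shown here from GRCh38 because each of its 3 snoRNAs has a row of its own in the count table, to which the results return. Capitals mark the C box (TGATGA) and the D box (CTGA) that the script found.
SNORD12C, chr20:49278940-49279028, plus strand: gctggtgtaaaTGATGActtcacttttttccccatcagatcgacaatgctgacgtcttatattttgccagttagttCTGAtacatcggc
SNORD12B, chr20:49280319-49280409, plus strand: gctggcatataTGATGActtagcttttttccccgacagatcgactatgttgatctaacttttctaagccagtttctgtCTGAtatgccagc
SNORD12, chr20:49280683-49280772, plus strand: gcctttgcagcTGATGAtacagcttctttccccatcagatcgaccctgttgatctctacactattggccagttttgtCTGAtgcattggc
The longest run of bases common to all 3 was cagatcgac, of 9 bases, downstream of the C box. All 3 lie outside the exons of the canonical ZFAS1 transcript, while 88 bases of SNORD12B and 90 bases of SNORD12 fall in an exon of some other annotated ZFAS1 transcript. SNORA9 of SNHG15 differs, since all of its 133 bases lie in exons of the canonical SNHG15 transcript. The count of SNHG15 may thus hold reads of SNORA9.

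The bases around the start sites are shown because they set ZFAS1 beside SNHG12, which changed in the opposite direction. The RefSeq promoter table (GRCh38.p14) held 8 of the 10 hosts, without SNHG6 and SNHG15. The search was on the transcribed strand only, for TATATAAG, TATAAG (contained in the first) and TATAAA in the 50 bases before the start, and for a C followed by at least 4 C or T at the start. Each window shows 60 bases before the start and 30 from it, with a TATA motif and a TOP-like run in capitals.
ZFAS1, chr20:49278582-49278671, plus strand: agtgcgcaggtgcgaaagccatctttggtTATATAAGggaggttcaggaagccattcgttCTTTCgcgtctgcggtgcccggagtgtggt
SNHG12, chr1:28581844-28581933, minus strand: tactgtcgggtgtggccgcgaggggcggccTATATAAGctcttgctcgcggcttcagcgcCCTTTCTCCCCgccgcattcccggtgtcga
SNHG5, chr6:85678704-85678793, minus strand: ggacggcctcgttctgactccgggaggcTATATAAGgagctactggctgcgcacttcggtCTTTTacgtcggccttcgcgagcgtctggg
These 3 windows had the same layout. TATATAAG began 31 bases before the start in ZFAS1, 30 in SNHG12 and 32 in SNHG5, and the pyrimidine run was 5, 11 and 5 bases long in the same order. Among 35116 start sites in the table, 0.302% held TATATAAG and 4.07% opened with such a run. The choice of TATATAAG is not shown to be independent of these windows, so its share describes the motif and is no test of the layout. SNHG8 held TATAAG, found before 1.10% of all starts, and SNHG7 held TATAAA, found before 2.63%. GAS5, SNHG1 and SNHG16 had none of the TATA motifs, and neither they nor SNHG7 and SNHG8 had the TOP-like run at the RefSeq start. The run was counted from the annotated base alone, and was 4 bases in SNHG7, 3 in SNHG1 and 1 in SNHG8. In SNHG8 further pyrimidines lie just before that base. A start a few bases away could thus give or take a run, and these hosts are not shown to lack one. For GAS5 the RefSeq start (position 173869045) lay upstream of the counted gene (173863900-173868882, minus strand). Its window is thus not the start of the counted gene, whose motifs were not read. The RefSeq starts of ZFAS1 (49278642), SNHG12 (28581873), SNHG1 (62855885), SNHG8 (118278762) and, by a few bases, SNHG5 (85678733) lay inside the deposited genes, not at their ends. After SAM, ZFAS1 was lower, SNHG12 was higher and SNHG5 did not pass the test in either direction, as the values below show, so hosts with a common start layout had different changes. The motifs describe the letters only.

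The libraries held between 12020601 and 28995160 gene counts in the SAM group and between 9379258 and 21768273 in the control group. Markers expected in the line were present: the epithelial KRT8, KRT18 and EPCAM, and CD44, were between 399 and 1307 CPM (counts scaled to a common, TMM-adjusted library size) in every library. KLK2 and KLK3 of luminal prostate cells had 0 counts. PTPRC of blood cells was at most 0.545 CPM and COL1A1 of fibroblasts was 16.6 to 18.8 CPM in all libraries. CDH1 was lower after SAM (267 CPM in SAM and 365 CPM in control cells on average, edgeR adjusted p = 0.0298) and VIM higher (14.5 CPM in SAM and 10.01 CPM in control cells, adjusted p = 0.0252). Neither passed with the replicate number as a block (0.0651 and 0.0611) or without SAM 1 or any 1 control library, and the part of these shifts in the host values was not tested. SAM 2 and control 1, the libraries of lowest depth in their groups, stood apart in short structured RNAs, as described with the snoRNA counts.

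A total of 3 hosts passed the test between SAM and control cells: SNHG12 and SNHG6 were higher after SAM and ZFAS1 was lower. The test was edgeR's quasi-likelihood test with Benjamini-Hochberg adjustment over all 15312 genes and a threshold of 0.05. By the same test, 10.4% of all genes changed (5.19% higher and 5.24% lower), so 3 of 10 hosts is a larger share than the background, from a small number of genes. The median log2 fold change over the 10 hosts was -0.05 and over all tested genes -0.01. In 4 of the 10 the SAM and control libraries did not overlap in CPM (2 with SAM above and 2 with SAM below), against 36.7% of all tested genes (17.9% above and 18.8% below).

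SNHG12 (ENSG00000197989, chr1:28578538-28582983, minus strand) had 10.7, 9.47 and 9.64 CPM in SAM 1 to 3, against 6.01, 6.31 and 5.48 CPM in control 1 to 3. Every SAM library was above every control library, and the libraries of a group lay close together, with a coefficient of variation of 6.78% in SAM and 7.05% in control. The mean was 9.94 ± 0.674 CPM in SAM and 5.93 ± 0.419 CPM in control cells (SD, n = 3 each), a log2 fold change of 0.75 (SE 0.14, 95% interval 0.45 to 1.05, edgeR adjusted p = 0.0120). SNHG12 was the least abundant of the 10 by CPM in control cells, and its count there was as low as 56 in control 1.

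SNHG6 (ENSG00000245910, chr8:66921684-66926398, minus strand), the host of the single C/D RNA SNORD87, had 60.4, 41.5 and 51.3 CPM in SAM 1 to 3, against 32.5, 40.5 and 34.3 CPM in control 1 to 3. The groups did not overlap, but SAM 2 was only just above control 2. The mean was 51.1 ± 9.45 CPM in SAM and 35.8 ± 4.20 CPM in control cells (SD, n = 3 each). The log2 fold change was 0.52 (SE 0.14, 95% interval 0.20 to 0.83, edgeR adjusted p = 0.0461), close to the threshold.

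ZFAS1 (ENSG00000177410, chr20:49278178-49295738, plus strand) was the most abundant of the 10 by CPM. It had 125, 84.1 and 112 CPM in SAM 1 to 3, against 145, 179 and 168 CPM in control 1 to 3. All SAM libraries were below all control libraries, with SAM 2 lowest. The mean was 107 ± 21.0 CPM in SAM and 164 ± 17.2 CPM in control cells (SD, n = 3 each), a log2 fold change of -0.62 (SE 0.15, 95% interval -0.95 to -0.29, edgeR adjusted p = 0.0302).

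These 3 calls depended on the libraries. None of the 10 hosts passed the test in edgeR without SAM 1, or without control 1, 2 or 3. Between 139 and 255 genes of the whole table passed in these fits. In each of them 3 or 4 hosts had an unadjusted p under 0.05. By that measure 3604 of 15320 tested genes differed without SAM 1 and 3191 of 15873 without control 1. The numbers were 3573 of 15339 without control 2 and 2950 of 15294 without control 3. Without SAM 2 or SAM 3 all 3 calls remained. The direction was the same each time: with 1 library left out, the log2 fold change was 0.68 to 0.80 for SNHG12, 0.37 to 0.64 for SNHG6 and -0.75 to -0.47 for ZFAS1. SNHG6 also missed the threshold with library totals as the scaling (adjusted p = 0.0609), with the replicate number as a block (0.0626), in limma voom (0.0520) and in limma on the deposited normalised signal (0.0538).

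**Figure D1:**
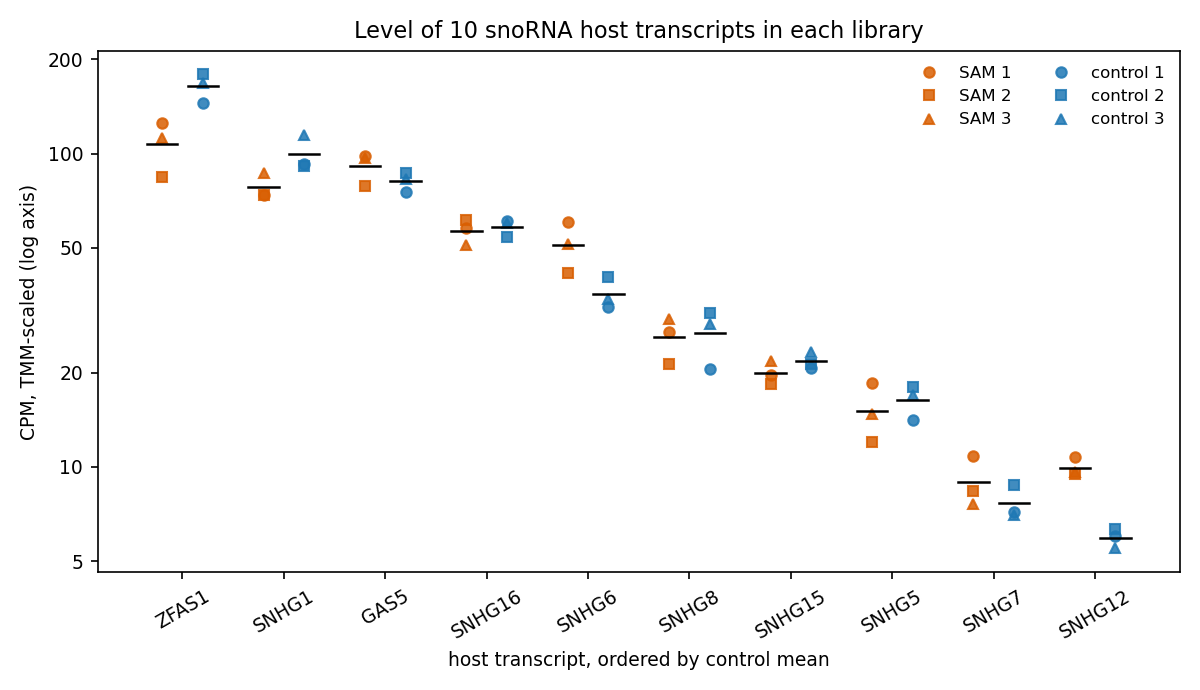
Each point is 1 library, with CPM on a log axis and the 10 host transcripts ordered by their control mean; orange marks SAM, blue marks control, symbols mark the replicate number and black lines the group mean. SNHG12 and SNHG6 sit higher in all 3 SAM libraries, and ZFAS1 and SNHG1 lower.

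SNHG1 (ENSG00000255717, chr11:62851988-62855914, minus strand), the host of SNORD25 to SNORD28 among others, was the remaining host whose groups did not overlap. It had 73.9, 73.7 and 86.6 CPM in SAM 1 to 3, against 93.0, 91.2 and 115 CPM in control 1 to 3. SAM 3 and control 3 were the highest of their groups. The log2 fold change of -0.35 (SE 0.12, 95% interval -0.62 to -0.08) did not pass the threshold in edgeR over all genes (adjusted p = 0.0863). It passed, as lower after SAM, without SAM 3 (adjusted p = 0.0312) and with no filter on low counts (0.0447). Adjusted p-values with no filter cannot be set beside those of the main fit, as described with the snoRNA counts.

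The remaining hosts that carry C/D RNAs had overlapping groups. GAS5 (ENSG00000234741, chr1:173863900-173868882, minus strand), named for its rise in growth-arrested cells, had 98.1, 78.7 and 96.8 CPM in SAM 1 to 3, against 75.6, 86.7 and 83.3 CPM in control 1 to 3. SAM 1 and SAM 3 were above all control libraries and SAM 2 was not. Its log2 fold change was 0.16 (95% interval -0.10 to 0.41, edgeR adjusted p = 0.375). SNHG5 (ENSG00000203875, chr6:85660950-85678736, minus strand), the host of SNORD50A and SNORD50B, had 18.5, 12.0 and 14.7 CPM in SAM 1 to 3, against 14.2, 18.0 and 16.99 CPM in control 1 to 3. The highest and the lowest of its 6 values were both in the SAM group, and the log2 fold change was -0.11 (95% interval -0.48 to 0.25, edgeR adjusted p = 0.664). SNHG16 (ENSG00000163597, chr17:76557766-76565348, plus strand), the host of SNORD1A, SNORD1B and SNORD1C, had 57.9, 61.4 and 51.2 CPM in SAM 1 to 3, against 61.0, 54.2 and 60.2 CPM in control 1 to 3. It was the one host highest in SAM 2 and had the narrowest interval of the 10, from -0.26 to 0.18 around a log2 fold change of -0.04 (edgeR adjusted p = 0.813).

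The hosts that carry H/ACA RNAs alone did not pass the test. SNHG7 (ENSG00000233016, chr9:136721366-136728184, minus strand), the host of SNORA17A and SNORA17B, had 10.9, 8.37 and 7.59 CPM in SAM 1 to 3, against 7.19, 8.76 and 7.002 CPM in control 1 to 3. SAM 1 stood above the other 5 values, and the interval of the log2 fold change was wide, from -0.15 to 0.62. SNHG8 (ENSG00000269893, chr4:118278709-118279823, plus strand), the host of SNORA24, had 27.0, 21.2 and 29.6 CPM in SAM 1 to 3, against 20.6, 31.1 and 28.6 CPM in control 1 to 3. SAM 2 and control 1 were low and the other 4 libraries high, irrespective of treatment, with an interval from -0.42 to 0.31. SNHG15 (ENSG00000232956, chr7:44983023-44986961, minus strand), the host of SNORA9, had 19.7, 18.4 and 21.7 CPM in SAM 1 to 3, against 20.7, 21.3 and 23.3 CPM in control 1 to 3, with an interval from -0.36 to 0.11. The edgeR adjusted p was 0.383 for SNHG7, 0.850 for SNHG8 and 0.446 for SNHG15. Of these 3 intervals, that of SNHG7 alone reaches the log2 fold change of SNHG6.

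**Figure D2:**
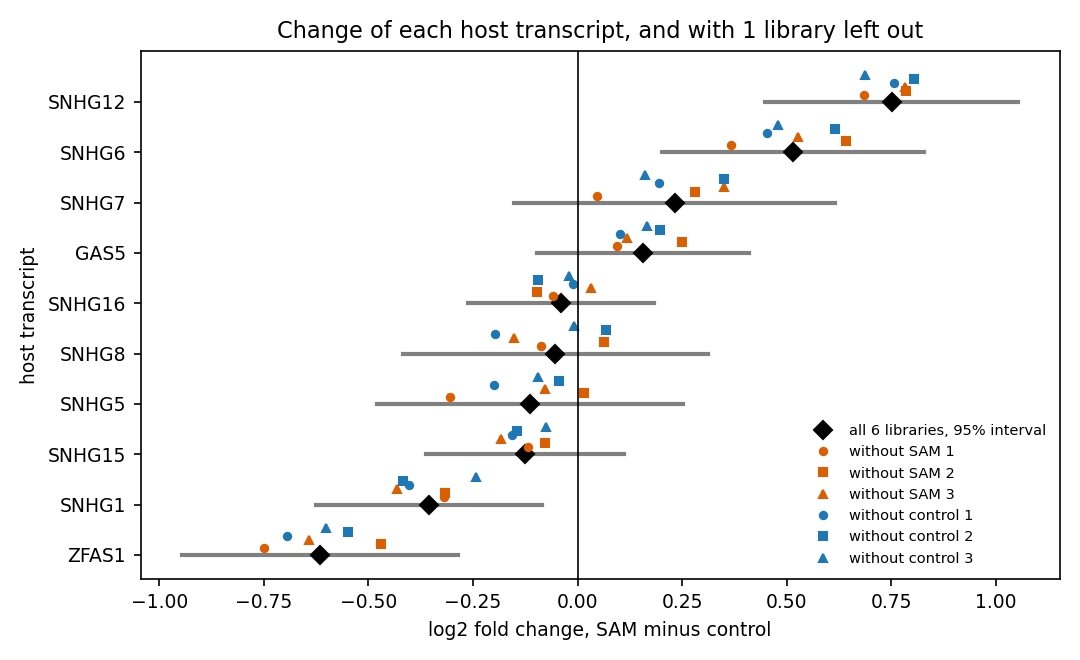
Log2 fold change of SAM minus control for each host transcript; black diamonds are the fit over 6 libraries with 95% intervals in grey, and small symbols the fits with 1 library left out. The intervals of SNHG12, SNHG6, SNHG1 and ZFAS1 leave out 0, and every symbol of these 4 stays on its side of 0.

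Ratios of raw counts within a library need no scaling between libraries, but they show only how hosts changed relative to each other. A fall of ZFAS1 alone would raise every ratio to it. The pairs were chosen after the values were seen and are given as a description. The ratio of SNHG12 to ZFAS1 was 0.0855, 0.113 and 0.0860 in SAM 1 to 3, against 0.0413, 0.0352 and 0.0326 in control 1 to 3, so its mean was 2.60 times as high after SAM. The ratio of SNHG6 to ZFAS1 was 0.482, 0.494 and 0.458 in SAM 1 to 3, against 0.224, 0.226 and 0.204 in control 1 to 3. This ratio varied little within a group although SNHG6 itself ranged from 41.5 to 60.4 CPM in the SAM libraries: SNHG6 and ZFAS1 were both highest in SAM 1 and lowest in SAM 2. GAS5 over ZFAS1 was 0.783, 0.936 and 0.864 in SAM 1 to 3, against 0.520, 0.484 and 0.495 in control 1 to 3. SNHG12 over SNHG6, the 2 hosts that rose, overlapped between the groups (0.177 to 0.228 in SAM and 0.156 to 0.185 in control).

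**Figure D3:**
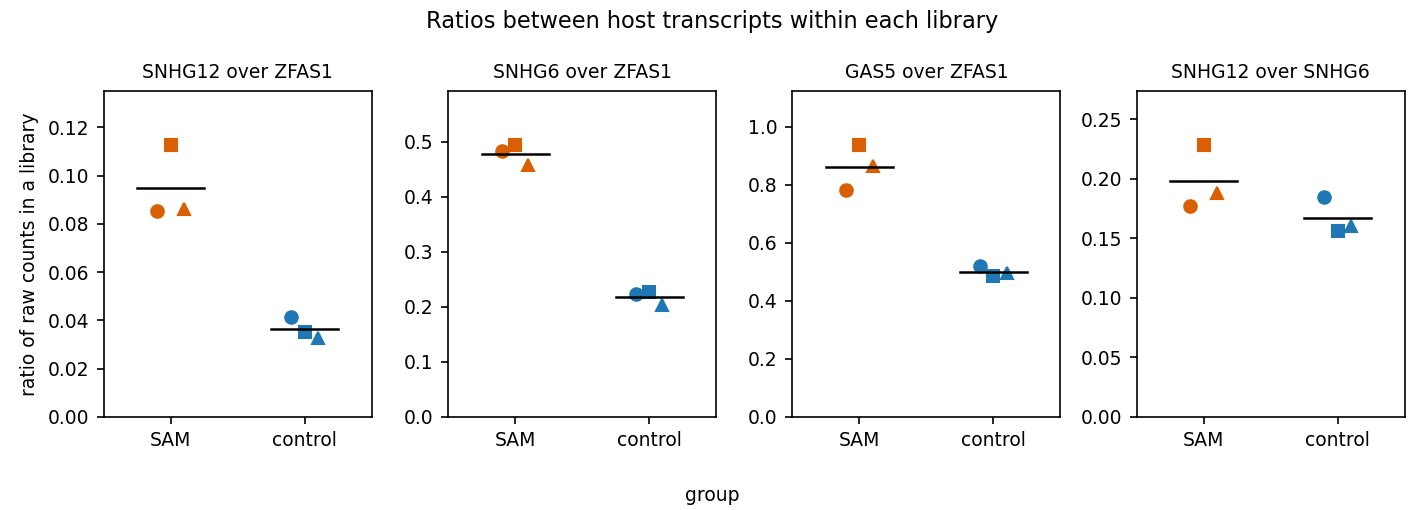
Ratios of raw counts of 2 host transcripts within each library, by group, with lines at the group mean and each axis starting at 0. The 3 ratios to ZFAS1 are higher in all SAM libraries, and SNHG12 over SNHG6 overlaps.

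As a share of all gene counts, the 10 hosts took 0.0503, 0.0402 and 0.0471% in SAM 1 to 3, against 0.0473, 0.0543 and 0.0554% in control 1 to 3. The widest 95% Wilson intervals were 0.0391 to 0.0414% in SAM 2 and 0.0460 to 0.0487% in control 1, and they cover counting error only. The groups overlapped in this share: SAM 1 was above control 1. The mean was 0.0459 ± 0.00515% in SAM and 0.0524 ± 0.00439% in control cells (SD, n = 3 each), and without ZFAS1 it was 0.0353% in SAM and 0.0358% in control. The make-up of the pool differed more than its size. ZFAS1 was 22.9 ± 2.20% of host counts in SAM and 31.6 ± 1.5% in control, SNHG6 was 10.9 ± 0.970% and 6.90 ± 0.614%, and SNHG12 was 2.15 ± 0.157% and 1.15 ± 0.127% (SAM, then control, SD, n = 3 each). GAS5, which did not pass the test by CPM, was 19.6 ± 0.437% of host counts in SAM and 15.8 ± 0.399% in control cells, without overlap. A lower share of ZFAS1 raises the shares of the others, so these shares are not independent of each other.

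**Figure D4:**
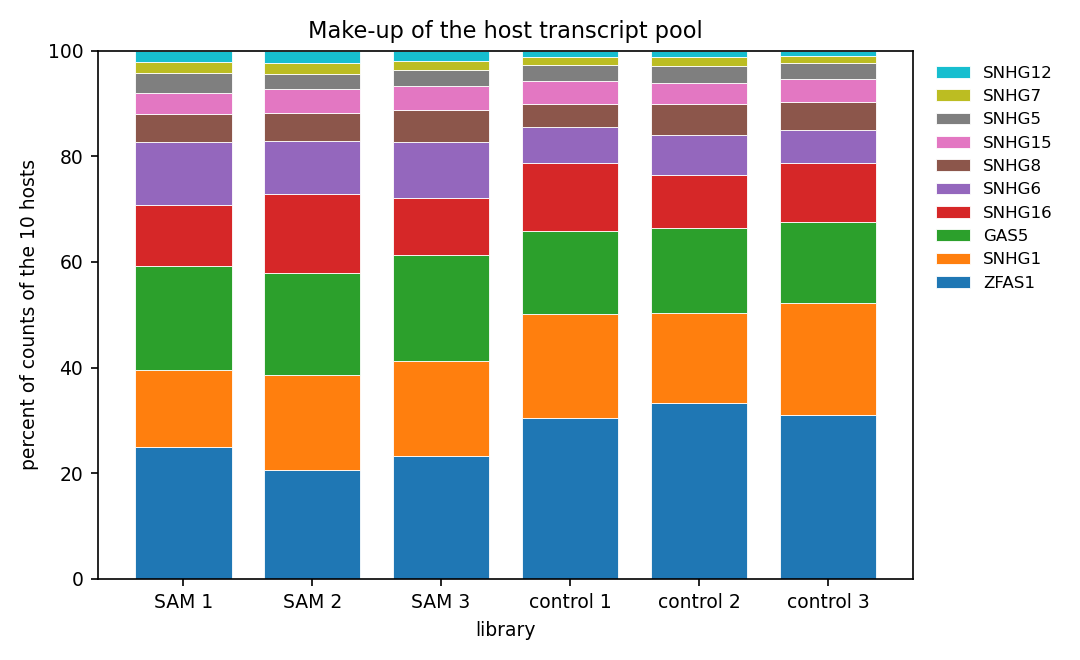
Stacked bars show the percent of the counts of the 10 hosts taken by each host in every library, SAM on the left and control on the right. ZFAS1 at the base takes 20.6 to 24.9% in SAM and 30.5 to 33.3% in control, while SNHG6 and GAS5 take more in SAM.

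Levels between genes were compared per kilobase of the transcript length given in the deposited table. In SAM cells the order, in CPM per kilobase, was GAS5 (168), ZFAS1 (106), SNHG16 (102), SNHG6 (78.8), SNHG1 (72.9), SNHG8 (38.7), SNHG5 (17.7), SNHG12 (13.8), SNHG15 (6.40) and SNHG7 (3.79). In control cells it was ZFAS1 (163), GAS5 (151), SNHG16 (105), SNHG1 (93.1), SNHG6 (55.2), SNHG8 (39.8), SNHG5 (19.3), SNHG12 (8.25), SNHG15 (6.98) and SNHG7 (3.25). GAS5 with ZFAS1, and SNHG6 with SNHG1, had the opposite order in the groups. In SAM the libraries of GAS5 were all above those of ZFAS1, while those of ZFAS1 and SNHG16, SNHG16 and SNHG6, SNHG6 and SNHG1, and SNHG5 and SNHG12 overlapped. In control the libraries of ZFAS1 and GAS5 overlapped, as did those of SNHG16 and SNHG1. The order rests on the length used: with the canonical GENCODE transcripts, which are longer for ZFAS1 (4526 against 1008 bases) and SNHG8 (6166 against 672 bases), SNHG16 was the most abundant in control cells and ZFAS1 the fourth.

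Several hosts had the same highest or lowest library of a group, a pattern that was not counted over all tested genes. SAM 1 was the highest SAM library for 6 of the 10 hosts and SAM 2 the lowest for 8, whereas control 2 was the highest control library for 7 and control 1 the lowest for 6. The mean centred log2 level over the 10 hosts was 0.15, -0.15 and 0.04 in SAM 1 to 3, against -0.13, 0.07 and 0.02 in control 1 to 3. SAM 2 and control 1 were thus the low libraries of their groups, and both were also the shallowest. GAS5 was closest to this mean profile, with a root mean square difference of 0.07 log2 units over the 6 libraries, and SNHG12 was farthest, with 0.36. Outside the 10 hosts, the tested genes nearest to the mean profile were OCIAD1, PIGB, BTG2, DYNC1LI1 and CALM2, with differences of 0.02 to 0.03 log2 units and edgeR adjusted p between 0.788 and 0.941.

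The same pair of libraries stood apart in snoRNA counts. All 914 snoRNA genes of the table together had 33.8, 527 and 23.7 CPM of total gene counts in SAM 1 to 3, against 381, 40.8 and 31.8 in control 1 to 3. SAM 2 and control 1 were far above every other library, irrespective of treatment, and SNORD3A, the U3 RNA of early rRNA processing, made up most of it (429 CPM in SAM 2 and 290 CPM in control 1, against 1.65 to 14.6 CPM in the other libraries). U3 is transcribed from its own promoter and needs no host. When both libraries were left out, SNHG12 (adjusted p = 0.0357), SNHG6 (0.0462) and ZFAS1 (0.0357) passed the test in edgeR with log2 fold changes of 0.80, 0.59 and -0.54. With a term for these 2 libraries in the model the same 3 hosts passed.

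**Figure D5:**
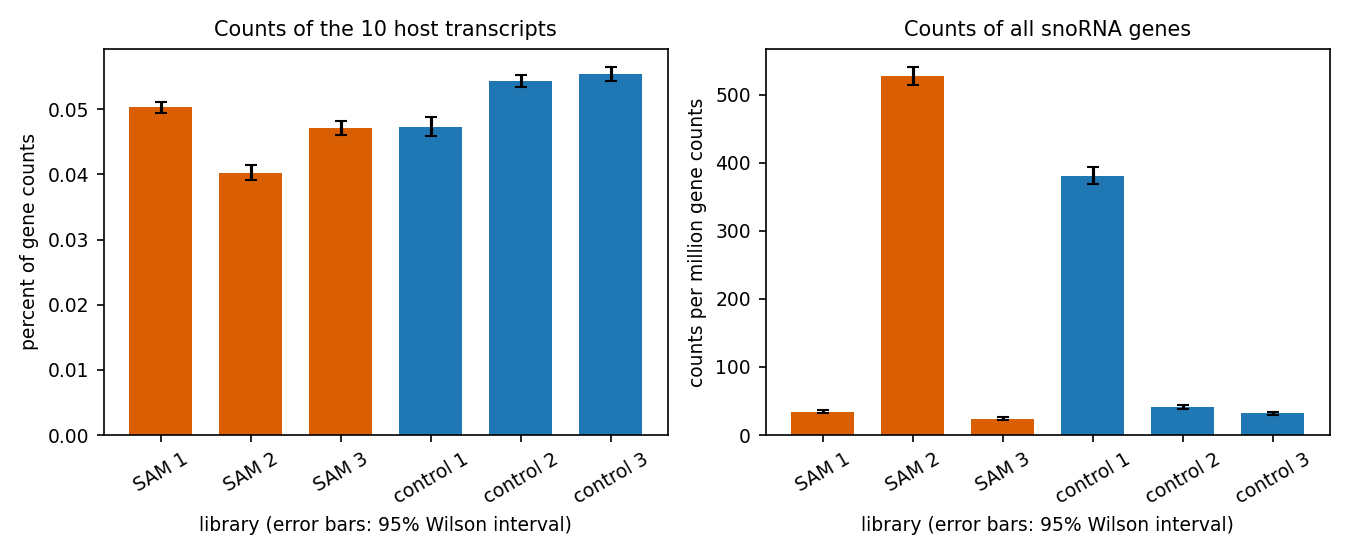
Left, the percent of gene counts taken by the 10 host transcripts in each library; right, the CPM of all snoRNA genes, both with 95% Wilson intervals and axes from 0. SAM 2 (527) and control 1 (381) are far above the 23.7 to 40.8 of the other libraries on the right, and have the lowest host share of their group on the left.

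Most snoRNAs inside the 10 hosts had no row of their own in the count table, so their coverage is unknown. The table held separate rows for 6 of them, with 47 counts in all libraries together. These rows held 28 counts in ZFAS1, 15 in SNHG12, 4 in SNHG16 and 0 in SNHG6. The hosts themselves had 15068, 876, 6174 and 4917 counts in the same order. Levels of cargo and host could therefore not be compared. SNORD12B of ZFAS1 had 5, 4 and 4 counts in SAM 1 to 3, against 0, 0 and 0 in control 1 to 3, at least 3.92-fold higher against a floor of 3 counts over the control group. It was below the filter of the test. In the fit with no filter its edgeR adjusted p was 0.00581, from 13 counts. Adjusted p-values of that fit cannot be set beside those of the main fit. At similar log2 fold changes it gave 2.28e-05 for ZFAS1 (main 0.0302) and 3.34e-19 for HSPA8 (main 0.00121). For PVT1 (0.0595, main 0.0495) and GAS5 (0.508, main 0.375) it gave higher values. The other resident RNAs with at least 10 counts showed no split between the groups like that of SNORD12B. SNORD12 of ZFAS1 had 2, 0 and 2 counts in SAM, against 1, 3 and 2 in control. SNORD99 of SNHG12 had 5, 1 and 0 counts in SAM, against 1, 4 and 4 in control. An annotated exon of ZFAS1 covers 88 of the 91 bases of SNORD12B, so its reads cannot be told from those of an alternatively spliced host. Among the 11 snoRNA genes of the whole table that could be tested, SNORD104, named here after its values were seen, was higher after SAM: it had 1.10, 1.61 and 1.52 CPM in SAM 1 to 3, against 0.429, 0.363 and 0.588 CPM in control 1 to 3 (log2 fold change 1.54, edgeR adjusted p = 0.0181). This call too was lost without SAM 1, without any 1 control library, and without SAM 2 and control 1 together (adjusted p between 0.0562 and 0.0908). It lies in the host SNHG25, which the table holds by its identifier under an older name, RP11-329L6.2, and which was not counted in the lists. That host had 2.76, 1.35 and 2.05 CPM in SAM 1 to 3, against 0.858, 1.41 and 0.783 CPM in control 1 to 3. The groups of the host overlapped and it did not pass the test (log2 fold change 1.03, 95% interval 0.31 to 1.75, edgeR adjusted p = 0.0684).

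The genes next to the hosts did not pass the test in any case where they were tested. SLC3A2, the heavy chain of amino acid transporters, starts 188 bases from the start of SNHG1 on the other strand and had a log2 fold change of -0.08 (95% interval -0.28 to 0.12). SNHG1 over SLC3A2 was 0.263 ± 0.0139 in SAM and 0.318 ± 0.0346 in control cells (SD, n = 3 each), without overlap. ZNFX1, a helicase gene of antiviral defence, starts on the other strand, 248 bases from the deposited start of ZFAS1. The genes overlap by the deposited positions, but not if ZFAS1 begins at its RefSeq start (49278642). ZNFX1 had 68.5 ± 8.09 CPM in SAM and 69.7 ± 4.49 CPM in control cells (SD, n = 3 each), with an interval of the log2 fold change from -0.27 to 0.22, and ZFAS1 over ZNFX1 was 1.59 in SAM and 2.37 in control without overlap. The log2 fold change was 0.17 for TRNAU1AP beside SNHG12, -0.49 for ST6GALNAC2 beside SNHG16, 0.12 for FAM69B beside SNHG7, -0.37 for ZBTB37 beside GAS5 and -0.22 for MCMDC2 beside SNHG6, with edgeR adjusted p between 0.218 and 0.895 for all 7 neighbours. GAS5-AS1 and RP11-666A8.8 were too low to be tested. These neighbours lie on the strand opposite to the host, and the sources used here do not say if counting was stranded, so reads in overlapping parts cannot be told apart.

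Other genes of the same system passed the test at shares of 6.67 to 7.89% in the lists of noncoding hosts, protein-coding hosts and particle proteins, near the 10.4% of all genes. Of 20 further noncoding hosts listed, 14 were tested. DANCR, the host of SNORA26, was the single one that passed (91.6, 78.7 and 94.7 CPM in SAM 1 to 3, against 60.4, 68.8 and 59.0 CPM in control 1 to 3, log2 fold change 0.49, edgeR adjusted p = 0.0235). DANCR lost its call without SAM 1 or any 1 control library (adjusted p between 0.0610 and 0.134), and the list held 4 calls with no filter on low counts and with a term for SAM 2 and control 1. Over all genes edgeR called 2743 of 30874 with no filter and 2502 of 15312 with that term. The count of lower genes in the list was 0 in edgeR, also at an unadjusted p under 0.05, and in DESeq2 and limma. The median log2 fold change of that list was 0.21. Of 38 protein-coding hosts, 3 passed and all 3 were higher: HSPA8, the constitutive cytosolic chaperone (log2 fold change 1.07, adjusted p = 0.00121), RPSA, a protein of the small ribosomal subunit (0.57, adjusted p = 0.0183), and NOP56, a core protein of box C/D particles (0.43, adjusted p = 0.0353). The median of those 38 was 0.15. Without SAM 1 or any 1 control library HSPA8 alone passed (RPSA and NOP56 had adjusted p between 0.0543 and 0.160), whereas 8 were higher without SAM 2, 4 were higher and 1 lower without SAM 3, and 8 were higher and 2 lower after correction for length and GC content. Of all 15896 genes tested without SAM 2, 1661 were higher and 1572 lower. Without SAM 3 it was 1253 and 1246 of 15900, and after the correction 1799 and 1433 of 15312.

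Among 15 tested proteins that build or assemble snoRNA particles, NOP56 alone passed in edgeR over 6 libraries, with 338, 288 and 364 CPM in SAM 1 to 3, against 228, 248 and 258 CPM in control 1 to 3. The log2 fold change was positive in 12 of the 15, the median was 0.25, and 8 were higher and 0 lower at an unadjusted p under 0.05. At that p-value 4678 of all 15312 genes differed, both directions together, and the share in each direction was not counted. DESeq2 called 4 of the 15 higher and limma voom 2. Over all genes, DESeq2 called 1004 of 30874 genes with a count higher and 891 lower. Limma voom called 792 of 15312 higher and 884 lower. In edgeR 0 of the 15 were called with the replicate number as a block (NOP56 adjusted p = 0.0708) and without SAM 1 or any 1 control library. The count was 7 without SAM 2 and 3 without SAM 3. Over all genes edgeR called 1028 of 15312 with the block, 3233 of 15896 without SAM 2 and 2499 of 15900 without SAM 3. Fibrillarin (FBL), named for its use of SAM and chosen after its values were seen, had 169, 162 and 218 CPM in SAM 1 to 3, against 159, 148 and 154 CPM in control 1 to 3. Its groups did not overlap, but its log2 fold change of 0.25 missed the threshold in edgeR (adjusted p = 0.186). Of 14 tested factors of nonsense-mediated decay, 0 passed in edgeR, 1 had an unadjusted p under 0.05 and DESeq2 called 1, with a median of 0.01. Of 21 translation genes with a TOP start, 0 passed in edgeR, 3 had an unadjusted p under 0.05 and DESeq2 called 1, with a median of 0.03, and 5 were higher without SAM 2 and 1 higher and 2 lower without SAM 3. Of 12 tested long noncoding RNAs that host no snoRNA, PVT1 passed (26.9 ± 0.941 CPM in SAM and 21.1 ± 1.36 CPM in control cells, SD, n = 3 each, log2 fold change 0.34, edgeR adjusted p = 0.0495), and the median was -0.08. PVT1 was not called by DESeq2 or limma, with the replicate number as a block (0.118), or in edgeR with any library but SAM 3 left out.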

How the data were processed

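The labels give a Peq-Gold kit for the RNA, TruSeq for the libraries and a HiSeq2000 for the reads. Tools listed in the submitters' processing notes, with no roles, are STAR 2.4, HTSeq 0.6.1, DESeq2 1.8, CASAVA 1.8.2, SAMtools 0.1.19 and FastQC 0.10.0, and the builds are hg19 and mm10. The study's text describes another dose, kit, sequencer and counter, and the labels were followed. The authors deposited raw counts per Ensembl gene and a normalised signal, in which each library's counts are divided by its own size factor (0.562 to 1.75). Positions in the deposited table are on GRCh38, since 99.9% of 51488 shared genes overlapped GENCODE. Every row names a gene.

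Counts were tested in edgeR 4.0.16 (R 4.3.3) with glmQLFit and glmQLFTest after filterByExpr and TMM scaling, two-sided, with treatment as the only term. Levels are CPM, n is the number of libraries, and intervals are 95%. The biological coefficient of variation was 13.5%. Depth of 9379258 to 28995160 counts left a counting error of 1.59 to 13.4% per host and library. On simulated counts of SAM against control for 15128 genes, the fit recovered 37.3% of genes changed 1.5-fold, 82.1% at 2-fold and 98.5% at 4-fold. Libraries of a group differed by 5.06 to 62.5 times sampling noise, so none was merged.

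The hosts and the lists were chosen with earlier results of these data known. Named are the 10 hosts, the called genes of each list up to 6 with the smallest p, all tested neighbours (overlapping, or starting within 2 kb), resident snoRNAs with at least 10 counts, and the 5 genes nearest to the hosts' mean profile. SNHG4, SNHG25, SNHG26, SNHG28, SNHG30, ZNHIT3 and RBM8A were listed but not found under these names and stayed out of the counts. Alternatives were RLE, upper-quartile and total scaling, DESeq2 1.42.0, limma 3.58.1 (voom, or a trend on log2 of the deposited signal plus 1), robust dispersion, other filters (none, or at least 1 CPM in 3 libraries), a replicate block, each library left out, SAM 2 and control 1 left out or given a term, a length and GC trend removed, and an adjusted p under 0.01. SAM and control libraries share replicate numbers, but nothing in the labels ties equal numbers to a common culture. Some markers of the line are not reported here. Figures were drawn with matplotlib 3.10.9.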

Additional observations from a re-analysis of the deposited data

How the results depend on the processing

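The main test called 1598 genes, with 2 hosts higher and 1 lower. The count of all genes was 2743 with no filter on low counts, 1028 with the replicate block, 954 without SAM 2 and control 1, 2502 with a term for them, 3232 after correction for length and GC content and 253 at an adjusted p under 0.01, and it was 139 to 3233 with 1 library left out. Hosts called higher fell to 1 (SNHG12) with library totals, the replicate block, limma voom and limma on the deposited signal, and to 0 at an adjusted p under 0.01, where hosts called lower were also 0. With 1 library left out, 0 to 2 hosts were higher and 0 to 2 lower. Hosts called lower were 2 with no filter on low counts, SNHG1 being added. Deviations of libraries with the same replicate number correlated at -0.17, -0.40 and 0.13, so the numbers were not taken to pair the samples. Under the replicate block 1 host was higher and 1 lower, and SNHG6 (adjusted p = 0.0626), NOP56 (0.0708), PVT1 (0.118), CDH1 (0.0651) and VIM (0.0611) lost their calls.

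SNHG12 and ZFAS1 passed under each of the other scalings, filters, tools and models at 0.05. No host called in the main test changed direction under any alternative. Among genes that were not called, the log2 fold change became positive in some fits. With 1 library left out, or SAM 2 and control 1 together, it was -0.304 to 0.016 for SNHG5, -0.198 to 0.068 for SNHG8, -0.096 to 0.033 for SNHG16, -0.381 to 0.120 for MCMDC2 and -0.110 to 0.060 for ZNFX1. After correction for length and GC content it was 0.030 for SNHG5, 0.113 for SNHG8 and 0.095 for ZNFX1. The host share differed by -0.0065 percentage points between SAM and control, by -0.0005 without ZFAS1, and by -0.0090 (without control 1) to -0.0037 (without SAM 2) with 1 library left out. The cause of these shifts was not tested. Depth limits SNHG12 and SNHG7 most, with 56 and 67 counts in control 1.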
